A study of Homo sapiens with 3 samples.

Results

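A list of 10 genes grouped as cell-cycle arrest genes downstream of p53 was followed, chosen by symbol. They were the CIP/KIP inhibitors of cyclin-dependent kinases (CDKN1A, CDKN1B, CDKN1C), the antiproliferative genes BTG1 and BTG2, the growth arrest and DNA damage genes GADD45A and GADD45B, the stress-responsive polo-like kinases PLK2 and PLK3, and SFN. All 10 were found by symbol among the 63241 genes of the table, and all 10 were among the 19820 genes with enough counts to be tested. They were measured by ribosome profiling, in which mRNA stretches covered by a ribosome survive nuclease digestion and are sequenced as footprints, so a gene's footprints reflect both how much of its mRNA there is and how heavily it is occupied. No matched RNA-seq was used here, and fewer expressing cells, less mRNA per cell and fewer ribosomes per mRNA cannot be told apart. From separate RNA-seq of its stable lines, the study reports lower transcripts of the p53 pathway with mutant than with wild-type p53. Those values were not used here.

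The cells were HEK293T, a human embryonic kidney line in which the SV40 large T antigen, a p53-binding viral protein, is present in every group. The 3 groups expressed a p53 construct that was wild type (WT), G245S or R273H, with 3 dishes per group, and all received cycloheximide for 2 min, kept at 100 μg/mL in the wash buffer to stop elongation. According to the study's methods each construct was introduced by lentivirus and the stable lines were kept in medium with puromycin, itself an inhibitor of translation, whereas the labels use both "stable" and "transient" for these cells and name the wt construct in the treatment of both mutants, so groups follow the sample titles. Cells without a p53 construct were not analysed here. The dishes of a group were combined at reverse transcription, so group and pool cannot be told apart, and p-values measure only the spread between dishes of a pool.

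The p53 protein is a transcription factor that is stabilized by DNA damage and other stress and binds DNA as a tetramer, each pair of subunits contacting a half-site with a CNNG core. Among the genes it induces, CDKN1A encodes p21, which blocks cyclin-dependent kinases and through them the phosphorylation of RB, the step that releases E2F and opens S phase. G245S and R273H are recurrent tumor changes in the DNA-binding domain. Several of the genes followed here also have other inducers: CDKN1B is driven by FOXO factors and controlled at the level of protein degradation, CDKN1C is an imprinted gene, and GADD45B responds to NF-κB and TGF-β signaling.

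The DNA around the start sites was read first, because the genes differ in whether a p53 site lies close by. A full site was defined as a pair of abutting half-sites of 10 bases, 20 bases in all, both with a CNNG core and together with at most 2 mismatches to the p53 consensus half-site, searched on both strands within 3000 bases of the RefSeq start in GRCh38. The limit of 2 was set with the CDKN1A site known. Start sites from RefSeq were given for 8 of the 10 genes (not for CDKN1C and GADD45A), and 4 of the 8 had such a site, beside 4.94% (1735) of all 35116 start sites searched. The 4 sites are shown because the genes that hold them behaved differently in the libraries; capitals mark the core of each half-site.
CDKN1A: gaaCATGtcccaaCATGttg
BTG2: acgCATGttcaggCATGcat
PLK2: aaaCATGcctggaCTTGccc
GADD45B: agaCTTGgttgaaCTTGgtt

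The CDKN1A site (chr6:36676449-36676468, plus strand) lay at position -2265 from the RefSeq start with 2 mismatches, and overlapped the first, untranslated exon of a longer CDKN1A transcript. The BTG2 site (chr1:203303642-203303661, plus strand) lay at -1877 with 2 mismatches, in an exon of the divergent transcript BTG2-DT. The PLK2 site (chr5:58462274-58462293, minus strand, the strand of the gene) lay at -2207 between genes and had 0 mismatches, which holds for 0.134% of all start sites. The GADD45B site (chr19:2478021-2478040, plus strand) lay 1894 bases downstream of the start, in an untranslated part of the gene's own exon, with 2 mismatches. The best match within the window had 3 mismatches at CDKN1B and SFN and 4 at BTG1 and PLK3. A match is a description of these letters and does not show binding, nor does a missing match show its absence.

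Libraries held 18.7 to 24.6 M expected counts, and levels are given as counts on a common library scale (CPM). Of 5 epithelial markers, the keratins KRT18 and KRT8 were present in every library (108 to 121 and 32.4 to 44.5 CPM). CDH1 (5.24 to 8.58 CPM) and EPCAM (3.28 to 5.35 CPM) were low, and KRT19 had at most 1 count in any library. The summed level of the 5, mostly KRT18 and KRT8, was 155 to 166 CPM in WT, 154 to 156 in G245S and 167 to 172 in R273H. The 4 markers described in HEK293 cells (VIM, CDH2, NEFL, NEFM) summed to 1540 to 1570, 1610 to 1620 and 1580 to 1590 CPM, with VIM at a mean of 884, 983 and 912 and NEFL at 122, 98.3 and 103. Of 6 markers of blood, endothelium, liver and fibroblasts, CD3E was at 0 in every library and PTPRC, PECAM1, CDH5 and ALB had at most 3 counts in any, while COL1A1 (25.0 to 34.0 CPM) made up nearly all of their sum, which was 31.0 to 34.0 CPM in WT, 25.1 to 30.0 in G245S and 26.7 to 29.2 in R273H. The part of these shifts in the results was not tested.

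In both mutants CDKN1A, BTG2, GADD45A, PLK3 and CDKN1B fell relative to WT, the first 4 to 50.3% of WT or less and CDKN1B to no less than 82.8%. In G245S 5 of the 10 genes were called lower at an adjusted p under 0.05, where 12.1% of all genes tested were called lower, and 0 were called higher, where 12.6% of all genes were; 24.7% of all genes were called in either direction. In R273H the same 5 were called lower, where 14.6% of all genes were, and 0 higher, where 14.2% were, with 28.8% called in all. Before adjustment, edgeR gave p under 0.05 for 7 of the 10 in G245S (35.7% of all genes) and 6 in R273H (38.8%). The DESeq2 test also called 5 lower and 0 higher in each, where it called 7.49% of its genes lower and 9.11% higher in G245S, and 9.38% and 10.1% in R273H. The median log2 fold change of the 10 genes was -0.41 in G245S and -0.27 in R273H, beside -0.00069 and -0.0024 over all genes tested. Both comparisons use the same WT libraries, so their likeness is not independent.

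**Figure D1:**
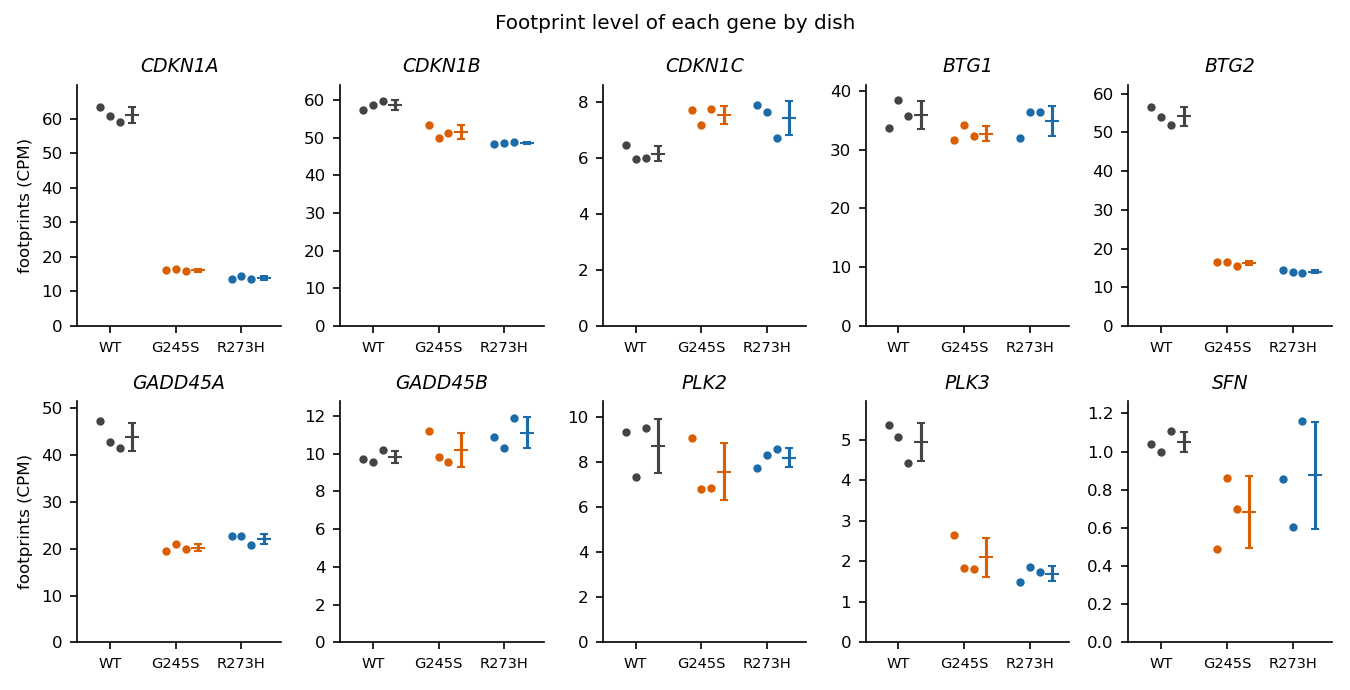
Footprints per gene in CPM (vertical axes, each from 0) for the 3 dishes of each group, as points, with the mean and SD beside them (n = 3 dishes). CDKN1A, BTG2, GADD45A and PLK3 separate WT from both mutants by wide gaps, CDKN1B by a narrow one, and BTG1 and PLK2 overlap between groups.

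CDKN1A (ENSG00000124762, GRCh38 chr6:36676460-36687337, plus strand, coding length 492 nt) had 63.5, 60.7 and 59.0 CPM in the WT dishes, 16.2, 16.5 and 15.8 in G245S, and 13.5, 14.4 and 13.7 in R273H. The groups did not overlap, and each mutant dish lay far below each WT dish. The mean went from 61.1 ± 2.27 CPM (SD, n = 3) to 16.1 ± 0.345 and 13.9 ± 0.515, that is 26.4% of WT (95% interval 24.4 to 28.6%) in G245S and 22.7% in R273H. The log2 fold changes were -1.92 (SE 0.0555, adjusted p 4.3e-21) and -2.14 (SE 0.0548, adjusted p 1.8e-22). Ordered from the strongest decrease, CDKN1A was number 61 of the 19820 genes in G245S and number 41 in R273H. DINOL, a noncoding gene on the other strand, overlaps CDKN1A, and whether counting used strand is not stated.

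CDKN1B encodes p27, the CIP/KIP protein that restrains CDK2 in resting cells and is removed by SKP2-directed ubiquitination. The gene (ENSG00000111276, chr12:12685498-12722369, plus strand, coding length 594 nt) had 57.4, 58.8 and 59.9 CPM in WT, 53.5, 50.0 and 51.2 in G245S, and 48.3, 48.6 and 48.9 in R273H. No dish of a mutant reached a WT dish, but the steps were small, to 87.8% of WT in G245S (log2 fold change -0.19, SE 0.0425, adjusted p 0.00152) and 82.8% in R273H (-0.27, SE 0.0417, adjusted p 1.1e-05). Against a minimum fold change of 1.2 in place of no change, both calls ended (adjusted p 1 and 0.92). GPR19 overlaps the gene on the other strand.

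CDKN1C encodes p57, the third inhibitor of the family. The gene (ENSG00000129757, chr11:2883213-2885775, minus strand, coding length 915 nt, 76.1% GC) had the fewest footprints of the family, with 6.45, 5.97 and 6.01 CPM in WT, 7.70, 7.17 and 7.75 in G245S, and 7.89, 7.64 and 6.73 in R273H. Here every mutant dish lay above every WT dish, the opposite of CDKN1A and CDKN1B, yet neither difference passed the threshold (log2 fold change 0.29, 95% interval 0.062 to 0.53, adjusted p 0.0577 in G245S and 0.27, 0.046 to 0.50, adjusted p 0.0649 in R273H). The call turned on single choices. Under upper-quartile scaling the G245S value was 0.31 (adjusted p 0.0473), with an offset for coding length and GC content the values were 0.30 (adjusted p 0.0464) and 0.37 (adjusted p 0.0102), and without R273H dish 3 the R273H value was 0.34 (adjusted p 0.0356).

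Since the 3 inhibitors bind the same kinases, their footprints were also set side by side per kb of coding sequence, a scale that allows for their different coding lengths. CDKN1A, CDKN1B and CDKN1C together had 230 ± 2.80 CPM per kb in WT (SD, n = 3), 128 ± 3.07 in G245S and 118 ± 1.21 in R273H. CDKN1A made up 55.5, 53.9 and 52.8% of that sum in the WT dishes, 25.0, 26.7 and 25.3% in G245S, and 23.3, 24.6 and 23.7% in R273H. CDKN1B went the other way as a share, from 43.0 ± 1.43% to 67.9 ± 0.768% and 69.3 ± 0.822%, although its own level was lower. The share of CDKN1C was 2.92 ± 0.0935% in WT, 6.45 ± 0.223% in G245S and 6.87 ± 0.556% in R273H. Its own level was 6.72, 8.24 and 8.11 CPM per kb and was not called different. With a sum that fell with CDKN1A, the shares of CDKN1B and CDKN1C rise even at unchanged levels. CDKN1A thus had more footprints per kb than CDKN1B in each WT dish (ratio 1.26 ± 0.0738) and fewer in each mutant dish (0.378 ± 0.0175 and 0.344 ± 0.0127). The WT order depends on the scaling by length. In CPM, CDKN1A was above CDKN1B in WT dishes 1 and 2 (63.5 and 60.7 against 57.4 and 58.8) but below it in dish 3 (59.0 against 59.9).

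**Figure D2:**
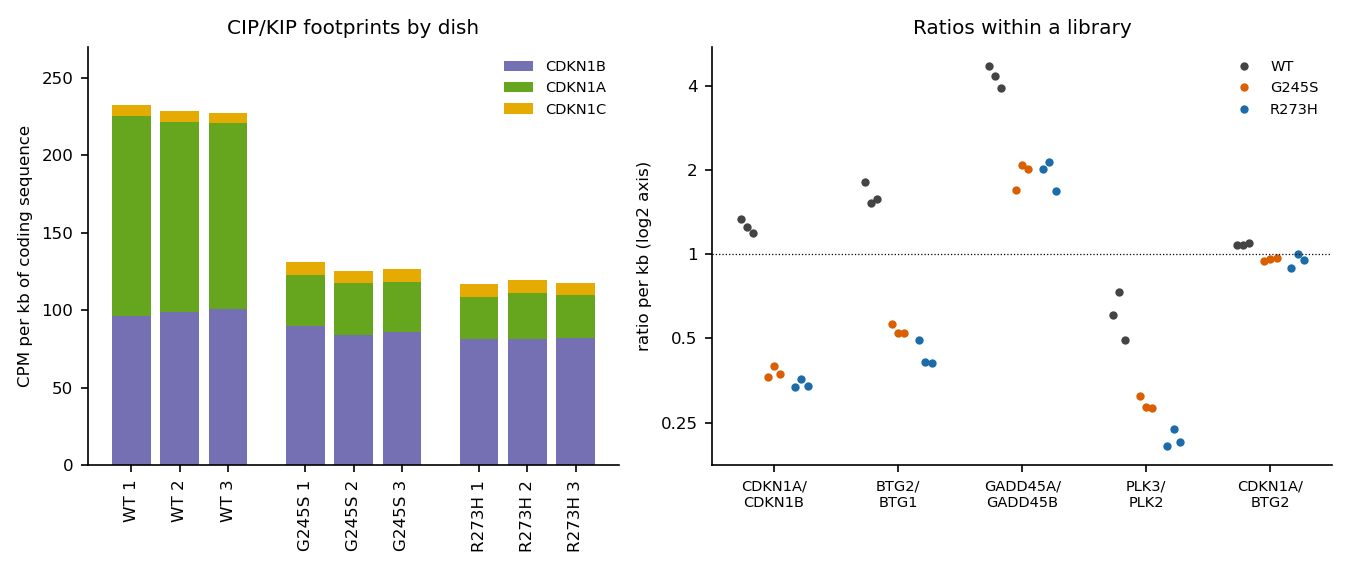
Left, stacked bars of CIP/KIP footprints in CPM per kb of coding sequence for each of the 9 dishes. Right, ratios of footprints per kb between pairs of genes on a log2 axis, 1 point per dish: the first 4 ratios are lower in every mutant dish than in any WT dish, and the CDKN1A to BTG2 ratio stays between 0.893 and 1.10.

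BTG1 and BTG2 encode small proteins that slow proliferation and bring the CCR4-NOT deadenylase to mRNAs. BTG2 (ENSG00000159388, chr1:203305491-203309602, plus strand, coding length 474 nt) had 56.7, 53.9 and 51.9 CPM in WT, 16.4, 16.5 and 15.6 in G245S, and 14.5, 13.9 and 13.8 in R273H. The mutant dishes lay far below WT, with 29.9% of WT left in G245S (log2 fold change -1.74, SE 0.0575, adjusted p 1.1e-19) and 25.9% in R273H (-1.95, SE 0.0567, adjusted p 4.2e-21). It was number 78 from the strongest decrease in G245S and number 52 in R273H.

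BTG1 (ENSG00000133639, chr12:92140278-92145846, minus strand, coding length 513 nt) had 33.7, 38.4 and 35.7 CPM in WT, 31.7, 34.1 and 32.3 in G245S, and 32.0, 36.4 and 36.4 in R273H. The 3 groups overlapped. In G245S the log2 fold change was -0.13 (95% interval -0.26 to -0.011, adjusted p 0.107) and missed the threshold. In R273H it was -0.039 (-0.16 to 0.080, adjusted p 0.666), and its sign turned without WT dish 2 (0.011), without R273H dish 1 (0.021) and with the offset for coding length and GC content (0.048). BTG1 overlaps LINC01619 on its own strand and BTG1-DT on the other. Per kb, BTG2 exceeded BTG1 in each WT dish (ratio 1.64 ± 0.162) and was below it in each mutant dish (0.537 ± 0.0212 in G245S and 0.438 ± 0.0467 in R273H).

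GADD45 proteins bind PCNA and CDK1 and activate the MAP3K4 stress kinase. GADD45A (ENSG00000116717, chr1:67685201-67688334, plus strand, coding length 495 nt) had 47.2, 42.8 and 41.4 CPM in WT, 19.6, 21.1 and 19.9 in G245S, and 22.6, 22.7 and 20.7 in R273H. All mutant dishes lay below all WT dishes, at 46.1% of WT in G245S (log2 fold change -1.12, SE 0.0613, adjusted p 2.0e-14) and 50.3% in R273H (-0.99, SE 0.0583, adjusted p 1.0e-13).

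GADD45B (ENSG00000099860, chr19:2476122-2478259, plus strand, coding length 480 nt) had 9.73, 9.56 and 10.2 CPM in WT, 11.2, 9.81 and 9.57 in G245S, and 10.9, 10.3 and 11.9 in R273H. G245S overlapped WT, with a log2 fold change of 0.051 (95% interval -0.15 to 0.25, adjusted p 0.759) that was -0.017 without G245S dish 1. The R273H dishes all lay above WT, but the difference of 0.17 (-0.021 to 0.36, adjusted p 0.181) missed the threshold, which it passed with the offset for coding length and GC content (0.27, adjusted p 0.0228). The GADD45A to GADD45B ratio per kb went from 4.33 ± 0.381 in WT to 1.93 ± 0.208 in G245S and 1.94 ± 0.234 in R273H.

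PLK2 and PLK3 are polo-like kinases induced by stress, PLK2 acting at the centrosome and PLK3 in the DNA damage response. PLK3 (ENSG00000173846, chr1:44800377-44805990, plus strand, coding length 1938 nt) was among those of the 10 genes with the fewest footprints, with 108, 96 and 84 counts in WT, 49, 36 and 39 in G245S, and 37, 46 and 40 in R273H. In CPM these were 4.95 ± 0.475, 2.10 ± 0.479 and 1.70 ± 0.180, and WT did not overlap either mutant. The log2 fold changes were -1.25 (SE 0.174, adjusted p 3.4e-06) and -1.54 (SE 0.174, adjusted p 7.7e-08). With these counts the interval is wide, from -1.60 to -0.89 in G245S, and DYNLT4 overlaps the gene on the other strand.

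PLK2 (ENSG00000145632, chr5:58453982-58460139, minus strand, coding length 2055 nt), the gene with a site of 0 mismatches upstream, had 9.33, 7.34 and 9.50 CPM in WT, 9.05, 6.81 and 6.86 in G245S, and 7.73, 8.29 and 8.58 in R273H. Its groups overlapped, and neither difference passed the threshold (log2 fold change -0.21, 95% interval -0.46 to 0.037, adjusted p 0.219, and -0.092, -0.33 to 0.15, adjusted p 0.605). Leaving out 1 dish moved the values between -0.35 (without G245S dish 1, adjusted p 0.0526) and -0.14 (without WT dish 3 or G245S dish 2 or 3) in G245S, and between -0.20 (without WT dish 2) and -0.026 (without WT dish 3) in R273H. A decrease as large as that of PLK3 lies outside both intervals.

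SFN encodes stratifin, which retains CDK1 and cyclin B in the cytoplasm and is best known in squamous epithelium. The gene (ENSG00000175793, chr1:26863149-26864456, plus strand, a single exon with a coding length of 744 nt) had 21, 19 and 21 counts in WT, 9, 17 and 15 in G245S, and 21, 15 and 27 in R273H. In CPM the G245S dishes all lay below WT (0.684 ± 0.189 against 1.05 ± 0.0527) and the R273H dishes overlapped it (0.875 ± 0.279). Neither log2 fold change passed the threshold (-0.61, 95% interval -1.28 to 0.067, adjusted p 0.189, and -0.27, -0.90 to 0.36, adjusted p 0.561). Without R273H dish 2 the R273H value was -0.062 and without dish 3 it was -0.52.

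**Figure D3:**
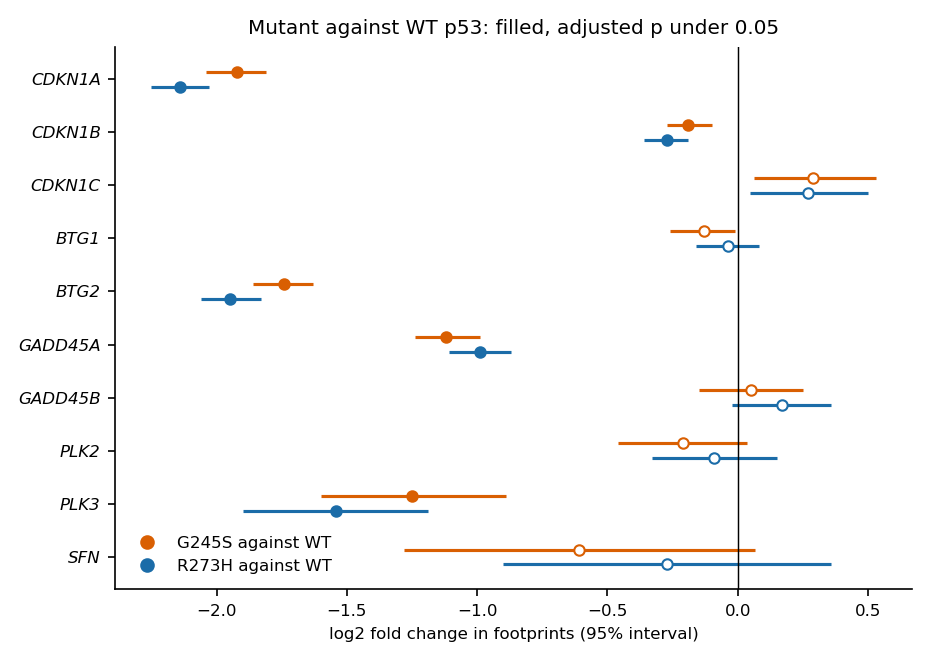
Log2 fold change of each gene against WT (horizontal axis) with its 95% interval from the edgeR fit, filled where the adjusted p was under 0.05. CDKN1A, BTG2, GADD45A and PLK3 lie between -2.14 and -0.99 in both mutants, CDKN1B lies at -0.19 and -0.27, and the other 5 genes are open.

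Levels were then ordered within each group. Per kb of coding sequence the WT order began with CDKN1A (124 ± 4.62 CPM per kb) and BTG2 (114 ± 5.15), whose dishes overlapped, followed by CDKN1B (98.8), GADD45A (88.5), BTG1 (70.0), GADD45B (20.5), CDKN1C (6.72), PLK2 (4.25), PLK3 (2.56) and SFN (1.41), none of which overlapped the next. In G245S CDKN1B (86.8) and BTG1 (63.7) came first, then GADD45A (40.8), BTG2 (34.2) and CDKN1A (32.8), of which BTG2 and CDKN1A overlapped. R273H had the same first 5 in the same order (81.8, 68.1, 44.5, 29.6 and 28.2 CPM per kb), with the same overlap. At the low end, PLK3 and SFN overlapped in both mutants.

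The mutants were then compared with each other, a test in which the WT libraries play no part beyond the shared estimate of spread. Of the 10 genes 0 were called, where 2.59% (513) of all genes tested were. Before adjustment edgeR gave 2 at p under 0.05, CDKN1A and BTG2, where 15.7% of all genes were, and DESeq2, which gave an adjusted p to 1 of the 10, called 0, where it called 6.69% of its genes. CDKN1A was higher in each G245S dish than in any R273H dish, by 0.22 on the log2 scale (95% interval 0.079 to 0.36, adjusted p 0.0880). BTG2 was likewise higher in each G245S dish, by 0.20 (0.062 to 0.34, adjusted p 0.122). For the other genes the interval of the difference included 0. It was narrowest for CDKN1B (-0.0024 to 0.17) and widest for SFN (-1.01 to 0.33). CDKN1B too was higher in each G245S dish than in any R273H dish, by 0.084 (adjusted p 0.335). The CDKN1C estimate (0.022, -0.20 to 0.24) changed sign without R273H dish 3 (-0.042).

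Genes with a pattern like that of CDKN1A were listed next. Over the 9 libraries, the genes whose log2 CPM followed CDKN1A most closely among 12655 with a mean count of at least 100 were FDXR (Pearson r 0.9992), BTG2 (0.9990), PLTP (0.9981), LRP10 (0.9979) and TP53INP1 (0.9977). The 9 points fall into WT and mutant clusters, so r mostly restates that contrast. FDXR, a mitochondrial ferredoxin reductase, had 99.3 CPM in WT, 12.1 in G245S and 10.1 in R273H, a far deeper change than that of CDKN1A, whereas PLTP, a phospholipid transfer protein (126, 50.3 and 46.1 CPM), and LRP10, a lipoprotein receptor relative (70.2, 32.4 and 30.1 CPM), had shallower ones. Among the 10 genes GADD45A followed at r 0.98 (number 157) and CDKN1B at 0.94 (number 437), while BTG1 had 0.41, PLK2 0.36, GADD45B -0.53 and CDKN1C -0.87. The CDKN1A to BTG2 ratio per kb was 1.08, 1.08 and 1.10 in the WT dishes, 0.948, 0.960 and 0.972 in G245S, and 0.893, 1.00 and 0.957 in R273H.

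Further lists gave the surroundings of these genes, described by counts and medians. The lists were chosen with earlier results of these data known, so their counts are description and not independent support. In the list of feedback and other p53-induced genes with a bearing on arrest, 9 of 10 were called lower in G245S (median log2 fold change -0.89) and 10 of 10 in R273H (-0.82), beside 12.1% and 14.6% of all genes. MDM2, the ubiquitin ligase that removes p53, went from 815, 852 and 913 CPM in WT to 73.3, 75.7 and 81.5 in G245S and 79.0, 73.4 and 77.7 in R273H (log2 fold change -3.48 and -3.49). PHLDA3, an inhibitor of AKT, fell from 56.5, 54.3 and 53.6 CPM to 5.71 ± 0.700 and 4.48 ± 0.548 (-3.27, adjusted p 3.2e-23, and -3.61, adjusted p 2.6e-24). TP53INP1, which promotes p53-dependent arrest and death, fell by 1.73 and 1.91. SESN1, a sestrin, fell from 62.7 ± 1.79 CPM to 31.3 ± 1.18 and 29.5 ± 0.766. The other sestrin of the list, SESN2 (log2 fold change -0.71 and -0.76), the phosphatase gene PPM1D (-0.87 and -0.82) and the RNA-binding protein gene ZMAT3 (-0.91 and -0.82) fell in both mutants.

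Family relatives outside the 10 had medians near 0. Of 19 relatives 17 were tested (BTG4 and PLK5 had at most 1 and 8 counts in any library). In G245S 3 of the 17 decreased and 2 increased at the threshold (median -0.0034), and in R273H 4 decreased and 0 increased (median -0.039), numbers near the share of all genes called (24.7% and 28.8%). Called lower in both were the INK4 inhibitors CDKN2B (-0.46 and -0.50) and CDKN2C (-0.26 and -0.30), which block CDK4 and CDK6, and TOB1 (-0.23 and -0.22), a BTG relative. The genes named from this list and the next 2 lists were chosen after their values were seen. Of the 6 other members of stratifin's family, YWHAG was called lower in R273H (-0.14, adjusted p 0.000533) and YWHAH higher in G245S (0.12, adjusted p 0.00348), and none was called in both mutants.

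Cyclins, CDKs and the RB/E2F axis, on which the 10 genes act, had calls in both directions, as all genes did. Calls were made for 9 of the 24 genes in G245S, 5 of them lower (median 0.023), and for 10 in R273H, 4 of them lower (median 0.020), beside 24.7% and 28.8% of all genes. CCND1, cyclin D1, rose from 53.6, 55.2 and 51.3 CPM in WT to 77.2, 78.2 and 70.9 in G245S and 71.0, 75.2 and 67.7 in R273H (0.50, adjusted p 4.4e-09, and 0.42, adjusted p 7.0e-08), and CCND2 rose by less (0.24 and 0.22). E2F2, an activator of S-phase genes, was higher (0.28 and 0.33). PCNA, the replication clamp to which p21 binds, fell from 365 ± 12.1 CPM to 307 ± 2.31 and 299 ± 6.60 (-0.25, adjusted p 3.2e-08, and -0.29, adjusted p 1.6e-09). RB1 fell by 0.28 and 0.20, and its relative RBL2 by 0.24 and 0.20, although the RBL2 calls ended without WT dish 3 (-0.16, adjusted p 0.0570, and -0.13, adjusted p 0.106) and, in R273H, with DESeq2 (adjusted p 0.0651). Against a minimum fold change of 1.2 CCND2, E2F2, PCNA, RB1, RBL2, CDKN2B, CDKN2C and TOB1 lost their calls in both mutants. The cyclins of S phase and mitosis, CCNE1, CCNE2, CCNA2, CCNB1 and CCNB2, and the kinases CDK1, CDK2 and CDK4 were not called in either mutant. CDK6 was called higher in R273H (0.13, adjusted p 0.00914) but not in G245S. CDC25C was called lower in both mutants (-0.12, adjusted p 0.0311, and -0.11, adjusted p 0.0377). Values of CDK6 and CDC25C under the alternatives are not given here.

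Regulators of CIP/KIP protein stability had 0 of 9 genes called lower, and 1 in G245S and 3 in R273H called higher (medians 0.051 and 0.038), where 12.6% and 14.2% of all genes were higher. Those in R273H were SKP2, CUL4A (0.19, adjusted p 0.00158) and CUL1 (0.11, adjusted p 0.00801). Values of CUL4A and CUL1 under the alternatives are not given here. SKP2, the F-box protein that targets p27, went from 72.6 ± 1.73 CPM to 80.3 ± 2.79 in G245S (log2 fold change 0.15, adjusted p 0.00553), and in R273H it stood at 84.1 ± 1.52 (0.21, adjusted p 6.2e-05), and the G245S call ended without G245S dish 2 (0.12, adjusted p 0.0504) and both calls against a minimum fold change of 1.2. Footprints say nothing of the level of the proteins themselves.

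**Figure D4:**
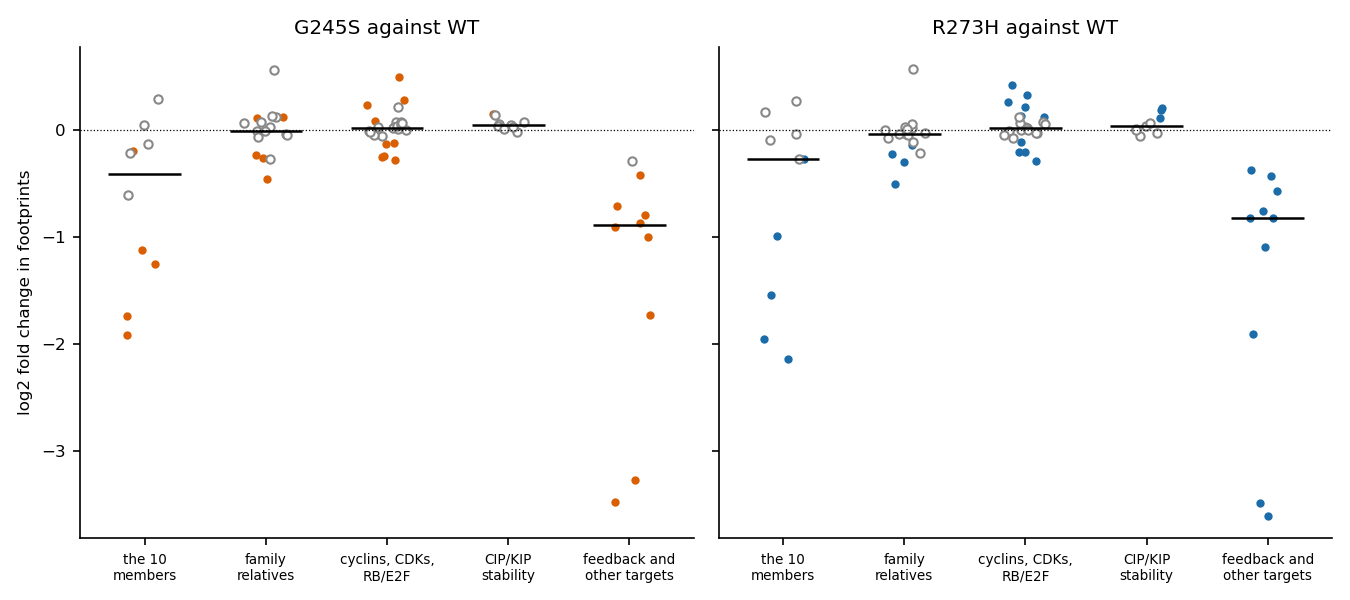
Log2 fold change of every tested gene (points) in the 10 genes and in 4 lists of related genes, for each mutant against WT, filled where the adjusted p was under 0.05 and with a line at the median. The feedback list has medians of -0.89 and -0.82, while the other 3 lists lie around 0.

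**Figure D5:**
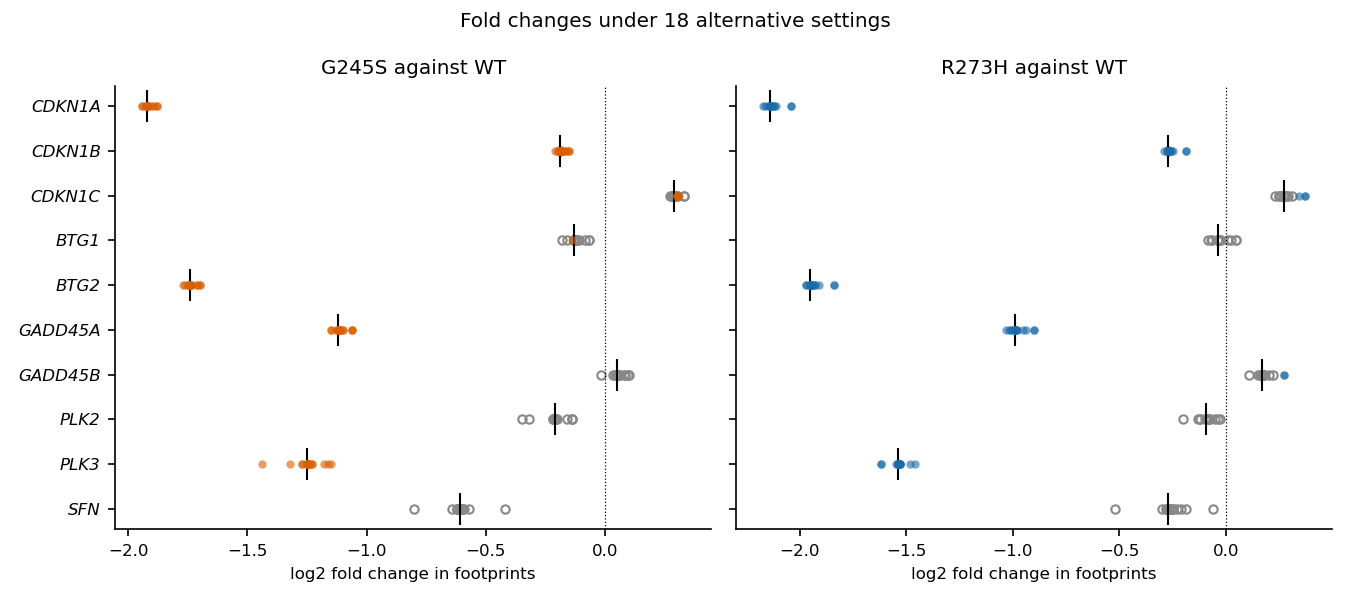
Log2 fold change of the 10 genes under 18 alternative settings (points, filled where the adjusted p was under 0.05) and in the reported fit (vertical bars). CDKN1A, BTG2, GADD45A and PLK3 stayed filled and negative under all 18 in both mutants, and the points of BTG1 in R273H and GADD45B in G245S lie on both sides of 0.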

How the data were processed

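Ribosome footprints were measured in HEK293T cells carrying WT, G245S or R273H p53 constructs (3 dishes each, matched to groups by the sample titles). The deposited table holds expected counts, estimated footprints per gene that need not be whole (61.5% to 63.7% of nonzero values were not), which the authors left unscaled for depth and length. Per the labels, the authors' tools included Trim Galore, cutadapt, UMI-tools and STAR with GRCh38; the counting tool, strand setting and treatment of multi-mapping reads are not given in the sources used here, so genes with near-identical copies and genes that overlap on either strand are uncertain. Expected counts were rounded, and a two-sided quasi-likelihood test in edgeR 4.0.16 (R 4.3.3) was run after filterByExpr and TMM scaling, with robust glmQLFit and glmQLFTest on all 9 libraries (18.7 to 24.6 M counts, 6 residual degrees of freedom), with Benjamini-Hochberg adjustment over 19820 genes and a threshold of 0.05. The fit was also run on counts simulated from its own means and dispersions, a run that cannot show whether its model holds for these dishes. CPM used TMM-scaled library sizes, and values per kb used the coding length of the Ensembl canonical transcript in GENCODE release 44. Of 63241 identifiers, 62666 matched that release.

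The 10 genes and the lists were chosen with earlier results of these data known. All 10 genes are reported; of the lists, genes called in both mutants with a log2 fold change over 0.5 in size and a mean count of at least 100 are named by rule, together with the 5 genes most correlated with CDKN1A; other list genes named were chosen after their values were seen. An item of the table is left out and not reported here. Alternatives were RLE and upper-quartile scaling, no filter, the DESeq2 1.42.0 Wald test, glmTreat at a fold of 1.2, only the libraries compared, dish number as a block, an offset for coding length and GC content (a spline trend), both together, and leaving out each dish. No spike-in was used, so each fold change is set against the rest of its library. The study reports more monosome signal in both mutants at matched cell numbers. A shift shared by all genes would not appear in the values given here.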

Additional observations from a re-analysis of the deposited data

Results flagged for a closer look

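The mutants differed from each other at 3 genes of the lists, by the edgeR test of G245S against R273H, adjusted over all genes. CDKN2A, which encodes an INK4 inhibitor and the MDM2 antagonist ARF, was higher in G245S than in R273H by 0.15 on the log2 scale (adjusted p 0.0121). Its levels were 191, 186 and 177 CPM in WT, 202, 192 and 191 in G245S, and 175, 182 and 170 in R273H, and the call ended with the offset for coding length and GC content (0.058, adjusted p 0.228) and without G245S dish 1 (0.12, adjusted p 0.109), R273H dish 1 (0.14, adjusted p 0.0696) or R273H dish 3 (0.12, adjusted p 0.0819). PLK1, the mitotic polo-like kinase, was higher in G245S by 0.11 (adjusted p 0.0163), and the call ended without G245S dish 1 or 2 or R273H dish 2 or 3 (adjusted p 0.0956, 0.128, 0.0941 and 0.0556). LIN54, the DNA-binding subunit of the DREAM repressor, was lower in G245S by a log2 fold change of -0.19 (adjusted p 0.0225), and the call ended without G245S dish 1 or 2 or R273H dish 1 or 3 (adjusted p 0.150, 0.0681, 0.120 and 0.0889). None of these 3 calls held against a minimum fold change of 1.2.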

How the results depend on the processing

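CDKN1A, BTG2, GADD45A and PLK3 kept their direction and call in both mutants under all 18 alternatives, and CDKN1B under all but the test against a minimum fold change of 1.2. Of 531 values of the 10 genes under alternatives, 510 kept direction and side of the threshold, 2 lost a call, 11 gained one and 8 changed sign, none of the last with a call. Genes called in G245S numbered 547 and in R273H 693 against a minimum fold of 1.2, a stricter test by construction, and 3049 and 3571 with DESeq2; between the mutants the 513 became 3 against that fold, and the cause of the other changes was not tested. Leaving out 1 dish gave 162 to 712 between the mutants (162 and 204 without G245S dish 1 and 2, 222, 233 and 295 without R273H dish 1, 2 and 3). Of the 10 genes, 1 was called higher in G245S under upper-quartile scaling and with the offset for coding length and GC content (CDKN1C), and 2 in R273H with the offset (CDKN1C, GADD45B); leaving out a dish gave 0 to 1 in R273H. BTG1 in R273H was 0.048 with the offset and -0.085 to 0.021 over omitted dishes (0.011 without WT dish 2). CDKN1C between the mutants was -0.070 with the offset and -0.042 to 0.068 over omitted dishes, and GADD45B in G245S -0.017 to 0.10.

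No source says that a dish number marks a shared day or batch. Correlations of same-numbered deviations were positive, 0.0421 to 0.229, but over 0.1 in only 4 of 9 pairs, so the numbers were not taken as pairs, although 8 of 9 libraries correlated best with their own number, a hint from the data and not the design. With dish number as a block, 1262 genes were called between the mutants (803 with the offset too). The block called 1 of the 10 genes higher in G245S against WT (CDKN1C, also with the offset), 1 higher in G245S against R273H (CDKN1A, 0.22, adjusted p 0.0410), BTG1 lower in G245S (-0.14, adjusted p 0.0343), and with the offset 2 higher in R273H; BTG1 in R273H was then 0.047 and CDKN1C between the mutants -0.071.

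With 3 dishes of 1 line in 1 pool per group, the adjusted p-values cover the spread between dishes but not variation between separate transductions or pools. PLK3 and SFN rest on averages of 59.4 and 18.3 counts per library.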
